A study of Homo sapiens with 5 samples.

Results

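A set of 10 nicotinic acetylcholine receptor subunit genes was followed in the SCLC cell line NCI-H209, cultured alone or conditioned by HBMECs. They were chosen by name as the alpha subunit genes CHRNA3, CHRNA4, CHRNA5, CHRNA6, CHRNA7, CHRNA9 and CHRNA10 and the beta subunit genes CHRNB2, CHRNB3 and CHRNB4, which are 10 of the 64837 gene entries counted. All 10 were found in the annotation, and 6 had enough reads for the comparison of the groups. CHRNA2, a further neuronal subunit gene outside the set, had at most 1 count in any library. NCI-H209 is an established line from a human small-cell lung cancer (SCLC), and HBMECs are endothelial cells from small vessels of the human brain. The control group held 3 RNA-Seq libraries of NCI-H209 cells labelled untreated. The co-cultured group held 2 libraries of NCI-H209 cells that had shared medium with HBMECs across a Transwell membrane for 24 h. The treatment protocol in the labels names the conditioning for all 5 samples, and the groups here follow the titles and the treatment field. Both groups came from 1 unmodified tumor cell line grown in RPMI-1640 medium with fetal bovine serum. The study grew the HBMECs with Nu-serum in addition and does not state the medium of the co-culture. The part of the medium in the contrast was not tested. The question was which subunit genes changed in tumor cells under the influence of the brain endothelium.

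Nicotinic receptors are cation channels in the cell membrane that open when acetylcholine or nicotine binds. Each receptor is a ring of subunits around a pore, and the choice of subunits sets the affinity for the ligand and the flow of calcium. CHRNA4 and CHRNB2 encode the main high-affinity receptor of the brain, CHRNA3 and CHRNB4 the receptor of autonomic ganglia, CHRNA7 a receptor made of a single kind of subunit, and CHRNA9 and CHRNA10 the receptor of the inner ear hair cells. The products of CHRNA5, CHRNA6 and CHRNB3 join other subunits, CHRNA5 and CHRNB3 as accessory subunits. SCLC arises from neuroendocrine cells of the airway, and SCLC cells are known to carry nicotinic receptors and to make acetylcholine.

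The windows around the start sites of CHRNA9, CHRNA3 and CHRNA10 are shown because the groups did not overlap in CPM for these genes. The same held for 59.4% of all genes tested. CHRNA9 was near 0 in the control libraries and was upregulated, CHRNA3 was low and was downregulated, and CHRNA10 was lower in both co-cultured libraries without passing the test. The sequences are RefSeq promoter windows of GRCh38.p14 with 250 bases before and 50 bases after the start, written 5′ to 3′ on the strand of the gene. The windows lie at chr4:40335083-40335382 on the plus strand for CHRNA9, chr15:78620947-78621246 on the minus strand for CHRNA3, and chr11:3671335-3671634 on the minus strand for CHRNA10. Capitals mark matches, on either strand, to CAGCTG, an E-box, to ACGTG and GCGTG, cores bound by hypoxia-inducible factors, to GGGCGG, bound by SP1, and to TGANTCA, bound by AP-1. Neighboring matches to GCGTG and GGGCGG can overlap.
CHRNA9: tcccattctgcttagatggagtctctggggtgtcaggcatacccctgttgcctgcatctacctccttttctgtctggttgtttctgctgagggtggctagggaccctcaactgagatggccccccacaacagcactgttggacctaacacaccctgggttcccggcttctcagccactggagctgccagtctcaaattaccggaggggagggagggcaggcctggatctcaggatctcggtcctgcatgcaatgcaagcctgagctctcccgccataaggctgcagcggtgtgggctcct
CHRNA3: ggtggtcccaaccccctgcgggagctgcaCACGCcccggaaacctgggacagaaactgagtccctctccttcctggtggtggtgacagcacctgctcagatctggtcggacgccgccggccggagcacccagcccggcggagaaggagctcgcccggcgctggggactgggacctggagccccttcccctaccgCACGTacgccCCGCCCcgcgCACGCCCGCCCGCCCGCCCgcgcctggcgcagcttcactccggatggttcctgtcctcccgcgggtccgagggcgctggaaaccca
CHRNA10: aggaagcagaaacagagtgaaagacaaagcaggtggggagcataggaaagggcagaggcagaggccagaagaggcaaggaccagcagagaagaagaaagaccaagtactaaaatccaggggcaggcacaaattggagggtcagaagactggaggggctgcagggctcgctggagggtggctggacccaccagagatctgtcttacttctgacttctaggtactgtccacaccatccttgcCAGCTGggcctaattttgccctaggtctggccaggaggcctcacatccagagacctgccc
The CHRNA9 window held 0 of the motifs searched and had a GC content of 58.7%. The CHRNA3 window, with a GC content of 72.7%, held GGGCGG 4 times, GCGTG 2 times and ACGTG 1 time. The CHRNA10 window held CAGCTG 1 time, at base -10 from the start. Among 35116 promoter windows of the same length, 17.9% held CAGCTG, 21.4% ACGTG, 36.5% GCGTG, 45.0% GGGCGG and 7.71% TGANTCA. Windows were found for 6 of the 10 genes. CHRNB2, with a single GCGTG, and CHRNB4, with 1 CAGCTG and 3 GGGCGG, were among them, and CHRNA7 had a pair of overlapping windows. A match is a run of letters and is no evidence that a factor binds.

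Library totals ran from 17317045 to 19157348 counts in the control group, and the co-cultured libraries held 18918787 and 15457071. A count of 3 corresponded to 0.153 to 0.198 CPM (counts scaled to the library total after TMM normalization) and was taken as the floor. Replicates of a group differed by more than counting error, with chi-square values of 4.19 to 16.1 per degree of freedom, so none was taken for a repeat deposit of the same library. The first principal component, with 69.7% of the variance, separated the groups, and the second, with 16.8%, set control replicate 1 apart. Between 92.3% and 93.1% of the counts lay on the strand of the gene. Of 12 neuroendocrine markers of SCLC, 11 were tested, among them INSM1 at 578 ± 71.9 CPM and NCAM1 at 496 ± 39.9 CPM in the control group (SD, n = 3), while CHGA had at most 1 count in any library. Of these 11 markers, 5 were higher and 1 was lower in the co-cultured libraries, where 33.4% of all genes tested were called, 18.4% higher and 15.0% lower. Endothelial markers bear on a carry-over of HBMECs into the tumor cell RNA. The CPM of 14 endothelial markers summed to 9.56 to 20.9 in the control libraries versus to 12.9 and 13.1 in the co-cultured libraries. Of these 14 genes, 9 were tested, and TIE1, EMCN, ROBO4 and MMRN1 had at most 3 counts everywhere. ESAM was called higher, with 3, 4 and 6 counts against 21 and 14. It passed the filter on low counts only through the co-cultured libraries, so its call describes it and supports nothing further. PECAM1, which marks all endothelium, had 14, 10 and 3 counts in the control libraries versus 18 and 11 in the co-cultured libraries. CDH5, the endothelial cadherin, had 11, 8 and 4 counts against 7 and 11. KDR, FLT1 and TEK had 24 to 37 counts in control replicates 1 and 2 and 0 to 2 in control replicate 3, with 17 to 44 further reads on the opposite strand in the same 2 libraries. In the co-cultured libraries these 3 genes had 1 to 12 counts. Without them the summed CPM of the 11 further endothelial markers was 9.46 to 15.7 in the control libraries versus 11.9 and 12.6 in the co-cultured libraries.

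Expression of the subunit genes in control cells was led by CHRNB2 and CHRNA5. Levels were compared between genes as RPKM, computed here as CPM divided by the kilobases of exon. CHRNB2, the structural partner of the brain receptors, was highest at 7.68 ± 1.12 RPKM (SD, n = 3). CHRNA5 followed at 4.10 ± 0.473 RPKM, and its range over libraries did not overlap that of CHRNB2. CHRNA4 was at 1.18 ± 0.381 RPKM and CHRNA10 at 0.828 ± 0.266 RPKM, and the ranges of these neighbors overlapped. CHRNA3 stood apart below them at 0.153 ± 0.0390 RPKM. Below CHRNA3, the ranges of CHRNB4 (0.0668 ± 0.0417 RPKM), CHRNA9 (0.0277 ± 0.0350 RPKM), CHRNB3 and CHRNA6 overlapped from each gene to the next, and CHRNA7 was at 0.

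In the co-cultured libraries the first 3 places were held by the same genes, with CHRNB2 at 7.19 ± 0.287 RPKM, CHRNA5 at 4.05 ± 0.296 RPKM and CHRNA4 at 1.26 ± 0.145 RPKM (SD, n = 2). CHRNA9 moved from place 7 to place 4, at 0.764 ± 0.155 RPKM, above CHRNA10 at 0.458 ± 0.0768 RPKM, and the ranges of these neighbors did not overlap. CHRNA3 dropped to 0.0379 ± 0.00507 RPKM, within the range of CHRNB4 at 0.0574 ± 0.0501 RPKM. The summed RPKM of the 10 genes was 15.3, 14.3 and 12.6 in the control libraries versus 13.5 and 14.2 in the co-cultured libraries, so the groups overlapped in the total.

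**Figure D1:**
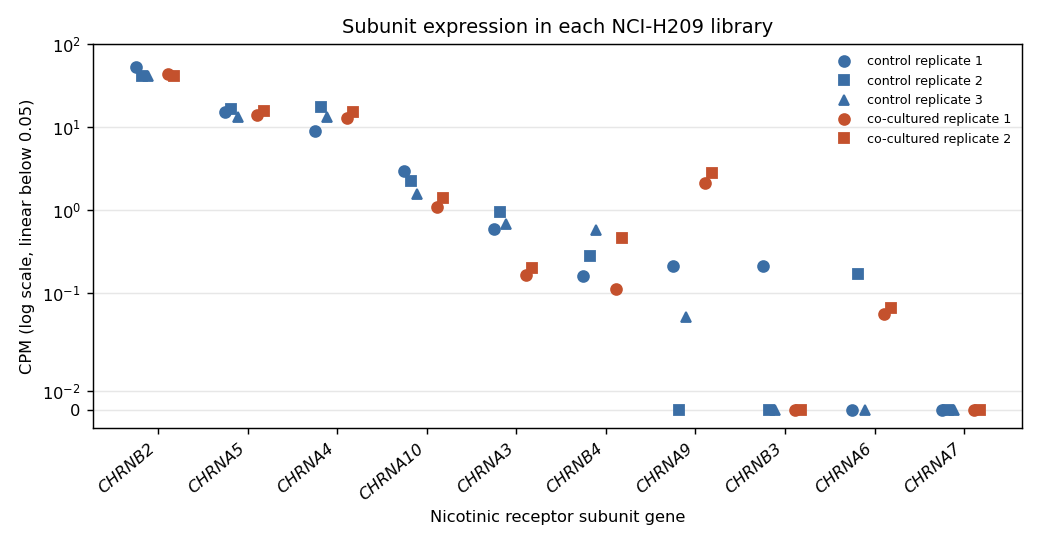
Level of each subunit gene in CPM on a log axis that is linear near 0, with a point for each library, blue for control and red for co-cultured. CHRNA9 lay at 0 to 0.212 CPM in the 3 control libraries and at 2.07 and 2.77 CPM in the 2 co-cultured libraries, whereas CHRNB2, CHRNA5 and CHRNA4 overlapped between the groups.

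As a share of the summed RPKM, CHRNB2 made up 58.6%, 49.3% and 55.4% in the control libraries versus 54.7% and 49.4% in the co-cultured libraries. CHRNA9 made up 0.437%, 0% and 0.128% against 4.84% and 6.18%. CHRNA10, its partner in the hair cell receptor, made up 7.18%, 5.72% and 4.49% against 2.99% and 3.62%. Both genes kept the groups apart, in opposite directions. In CPM the groups did not overlap for 59.4% of all genes tested. The shares of the summed RPKM are of RNA and are not the composition of any receptor. In a bulk culture fewer cells with a transcript and less transcript per cell cannot be told apart.

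**Figure D2:**
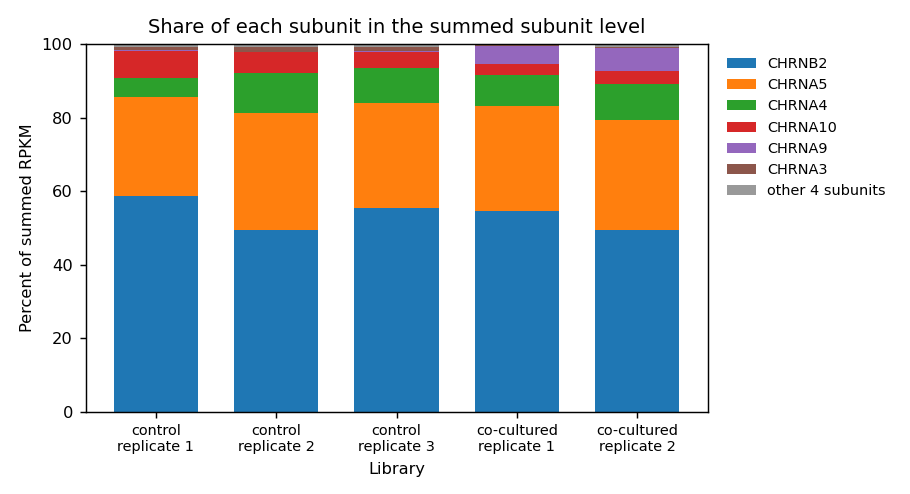
Share of the summed RPKM of the 10 subunit genes, in percent, that each gene held in each of the 5 libraries. CHRNB2 and CHRNA5 together filled most of every bar, and the CHRNA9 segment was 4.84% and 6.18% in the co-cultured libraries against at most 0.437% in the control libraries.

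Across the genes tested, CHRNA9 was higher and CHRNA3 lower in the co-cultured libraries at an adjusted p under 0.05 in edgeR's quasi-likelihood test after Benjamini-Hochberg adjustment. These were 2 of 6 subunit genes, beside 33.4% of all 20360 genes tested, with 18.4% of all genes tested higher and 15.0% lower. The balance of directions over all genes depended on the scaling, with 3750 higher and 3059 lower here and 3076 higher and 3929 lower with upper-quartile normalization. The share of subunit genes called was close to that background. With the thresholds of the study's methods, whose fold change limit was read here as an absolute log2 fold change above 1 and whose p limit as an unadjusted p under 0.05, the same 2 genes passed, beside 10.5% of all genes tested. The groups did not overlap in CPM for CHRNA9, CHRNA3 and CHRNA10, 3 of 6, beside 59.4% of all genes tested. The median log2 fold change was -0.06 over the 6 subunit genes and -0.03 over all genes tested. CHRNA9 passed the filter on low counts only through the co-cultured libraries and CHRNA3 only through the control libraries, so these counts over the tested genes describe them and support nothing further.

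**Figure D3:**
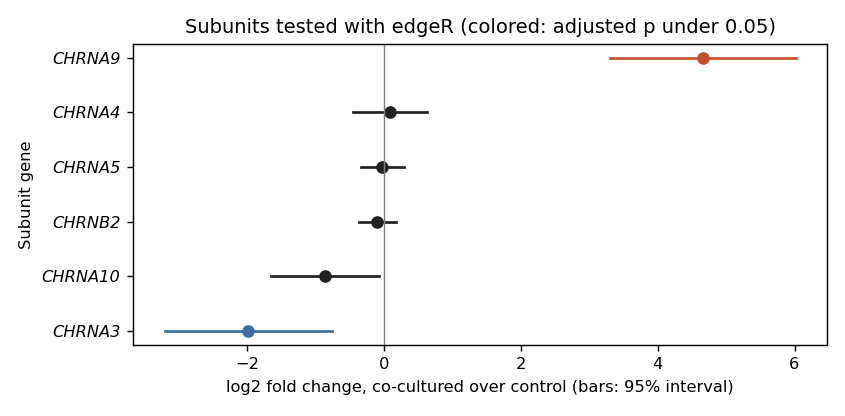
Log2 fold change between co-cultured and control libraries for the 6 tested subunit genes, with 95% confidence intervals from edgeR's quasi-likelihood fit. The intervals of CHRNA9 (3.31 to 6.02), CHRNA3 (-3.20 to -0.75) and CHRNA10 (-1.65 to -0.07) did not cross 0, and those of CHRNA4, CHRNA5 and CHRNB2 did.

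CHRNA9, the ligand-binding subunit of the hair cell receptor, lies on chromosome 4 at 40335329-40355217 on the plus strand (GRCh38, GENCODE release 29), and no other annotated gene overlaps it. It had 4, 0 and 1 counts in the control libraries versus 38 and 42 counts in the co-cultured libraries. Both co-cultured libraries were far above every control library, and 4 of the 5 control reads came from control replicate 1. In CPM the level was 0.0878 ± 0.111 (SD, n = 3) against 2.42 ± 0.492 (SD, n = 2). The log2 fold change was 4.66 (SE 0.60, adjusted p = 0.000581 in edgeR's quasi-likelihood test after Benjamini-Hochberg adjustment), and it ranked 865 of the genes tested by p. Since the control counts were near the floor, this value depends on the prior count of the fit. The ratio of the pooled CPM was 27.0, with an exact 95% interval of 11.1 to 85.4 that covers counting error only. Without control replicate 1, the log2 fold change was 6.17. Reads on the opposite strand numbered at most 1 in any library.

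The nearest tested protein-coding genes on each side of CHRNA9 were read from the same fit. N4BP2, 177077 bases before it, showed a log2 fold change of 0.10 (adjusted p = 0.324 in edgeR's quasi-likelihood test). RBM47, which encodes an RNA-binding protein and lies 68050 bases after CHRNA9, rose by 1.05 on the log2 scale (SE 0.19, adjusted p = 0.00297 in edgeR's quasi-likelihood test). Among 13691 protein-coding genes, the profiles over the 5 libraries most like that of CHRNA9 were those of FIBIN, LAMB3 and CXCL5, with root mean square differences of 0.313, 0.349 and 0.360 in centered log2(CPM + 0.1). LAMB3 encodes a chain of laminin and CXCL5 a chemokine. Their log2 fold changes were 3.48, 5.09 and 3.87. These genes were picked for their likeness to CHRNA9 in the same libraries. A change in its direction follows from that choice and supports nothing further.

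CHRNA3, CHRNA5 and CHRNB4 form a cluster on chromosome 15. CHRNA3, the ligand-binding subunit of the ganglionic receptor, lies at 78593052-78621295 on the minus strand. It had 11, 17 and 13 counts in the control libraries versus 3 counts in each co-cultured library. Both co-cultured libraries were at the floor and below every control library. The level was 0.729 ± 0.186 CPM (SD, n = 3) against 0.181 ± 0.0241 CPM (SD, n = 2). CHRNA3 fell by 1.98 on the log2 scale (SE 0.54, adjusted p = 0.0212 in edgeR's quasi-likelihood test after Benjamini-Hochberg adjustment). The ratio of the pooled CPM was 0.247, with an exact 95% interval of 0.0857 to 0.585. The size of the change was kept while the call was lost with DESeq2 (log2 fold change -2.01, adjusted p = 0.0735) and without control replicate 2 (-1.76, adjusted p = 0.0541 in edgeR's quasi-likelihood test). Leaving out co-cultured replicate 1 or 2 gave log2 fold changes of -1.83 and -2.10 with an adjusted p of 0.169 or 0.117 in the same edgeR test.

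The CHRNA3 value depended on the strand counted. CHRNA3 and CHRNA5 lie tail to tail on opposite strands, and the genes overlap at chr15:78593052-78595269, a stretch of 2218 bases in which 198 bases are exonic in both. Reads on the strand opposite to CHRNA3, which is the strand of CHRNA5, numbered 91, 95 and 99 in the control libraries versus 77 and 60 in the co-cultured libraries. They were 84.8% to 96.3% of the reads counted on either strand at CHRNA3. Counted without regard to strand, CHRNA3 had 60, 79 and 77 reads against 50 and 39, its log2 fold change shrank to -0.47, and the call was lost (adjusted p = 0.134 in edgeR's quasi-likelihood test). CHRNA5 had at most 1 read on its opposite strand in any library, and 102, 136 and 110 reads against 86 and 92 with strand ignored. The values that ignore strand were thus below the counts on the gene's own strand for CHRNA5 and below the sum of the strands for CHRNA3. The antisense gene AC027228.2 also overlaps CHRNA5, of whose exon bases 1030 are shared with exons on the opposite strand. The part of these overlaps in the values was not tested.

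**Figure D4:**
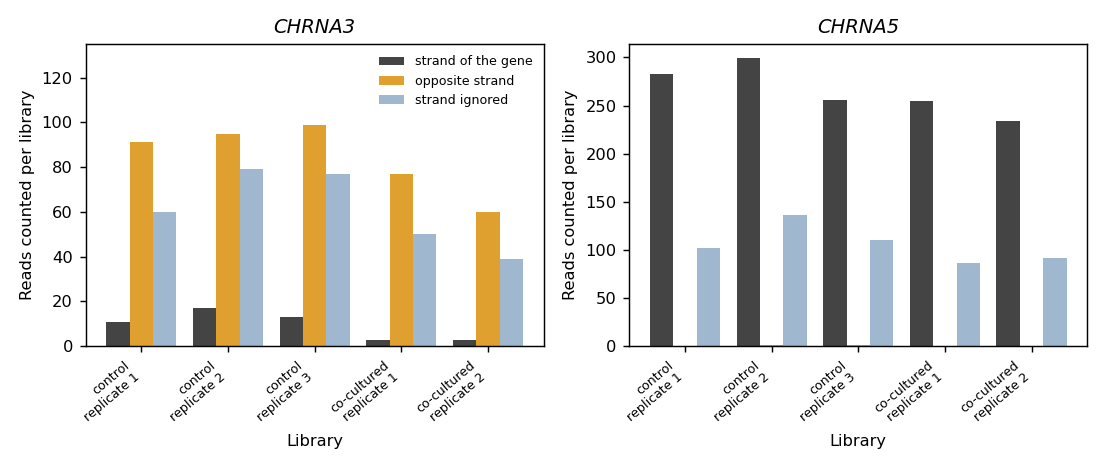
Reads counted for CHRNA3 and CHRNA5 in each library on the strand of the gene, on the opposite strand and with strand ignored. For CHRNA3 the opposite strand held 60 to 99 reads and its own strand 3 to 17, and for CHRNA5 its own strand held 234 to 299 and the opposite strand at most 1.

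CHRNA5, an accessory subunit, lies at 78565520-78595269 on the plus strand. It had 283, 299 and 256 counts in the control libraries versus 255 and 234 in the co-cultured libraries. The groups overlapped in CPM, with 14.9 ± 1.71 (SD, n = 3) against 14.7 ± 1.07 (SD, n = 2). Its log2 fold change was -0.02 with a 95% interval of -0.33 to 0.29 (adjusted p = 0.924 in edgeR's quasi-likelihood test).

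CHRNB4, the structural partner of CHRNA3, lies at 78624119-78727754 on the minus strand. It had 3, 5 and 11 counts against 2 and 7, too few to be tested. The groups overlapped, and the ratio of the pooled CPM was 0.799 with an exact 95% interval of 0.319 to 1.85. A difference was not detectable at this depth. The tested neighbors of the cluster, PSMA4 on one side and MORF4L1 on the other, had log2 fold changes of 0.00 and 0.16 and were not called.

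CHRNA10 requires CHRNA9 to form a working receptor and lies on chromosome 11 at 3665587-3671384 on the minus strand, within the span of NUP98 on the same strand. It had 56, 40 and 30 counts in the control libraries versus 20 and 21 in the co-cultured libraries. Both co-cultured libraries were below every control library, and control replicate 3 was nearest to them. The level was 2.24 ± 0.720 CPM (SD, n = 3) against 1.24 ± 0.208 CPM (SD, n = 2). The log2 fold change was -0.86 with a 95% interval of -1.65 to -0.07, and it did not pass the test (adjusted p = 0.0889 in edgeR's quasi-likelihood test after Benjamini-Hochberg adjustment). Without control replicate 3 it passed, with an adjusted p of 0.0439 in the same edgeR test. NUP98 showed a log2 fold change of -0.16 (adjusted p = 0.140 in edgeR's quasi-likelihood test).

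CHRNB2 lies on chromosome 1 at 154567781-154580026 on the plus strand. It had 996, 752 and 808 counts in the control libraries versus 798 and 624 in the co-cultured libraries. Control replicate 1 was highest and the remaining 4 libraries lay close together, at 41.2 to 43.5 CPM. The log2 fold change was -0.09 with a 95% interval of -0.36 to 0.18 (adjusted p = 0.582 in edgeR's quasi-likelihood test). Its nearest tested neighbors UBE2Q1, a ubiquitin-conjugating enzyme gene, and ADAR, which encodes an RNA-editing enzyme, rose by 0.48 and 0.46 on the log2 scale. Their adjusted p-values were 0.0173 and 0.00382 in edgeR's quasi-likelihood test.

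CHRNA4, the ligand-binding partner of CHRNB2, lies on chromosome 20 at 63343223-63378401 on the minus strand. It had 166, 312 and 256 counts in the control libraries versus 234 and 228 in the co-cultured libraries. The control libraries spread more widely than the groups differed, from 8.81 CPM in control replicate 1 to 17.2 CPM in control replicate 2. The log2 fold change was 0.09 with a 95% interval of -0.45 to 0.63 (adjusted p = 0.798 in edgeR's quasi-likelihood test). 

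The remaining subunit genes were at or near the floor. CHRNA6, a subunit of receptors on dopaminergic nerve endings, had 0, 3 and 0 counts against 1 and 1. CHRNB3, which lies next to it on chromosome 8, had 4 counts in control replicate 1 and 0 in every other library. CHRNA7 had 0 counts in all 5 libraries, and so had CHRFAM7A, a partial duplicate of CHRNA7 fused to other sequence. These values do not show that CHRNA7 is silent. Of the 100-base windows of CHRNA7 transcripts, 20.6% also occur in CHRFAM7A, and reads that match several places were not counted. Entries on patch or haplotype sequences also took reads of some genes in this region. FAN1, within 1000000 bases of CHRNA7, had 31, 20 and 28 counts against 42 and 21 at its primary entry. At a further entry of the same name it had 97, 110 and 132 counts against 107 and 92. GOLGA8N went the same way, with 0 counts at its primary entry and 27 to 68 at a further one. KLF13 went the other way, with 216 to 346 counts at its primary entry and at most 1 at a further one. MTMR10 and ARHGAP11A had reads at both entries.

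Genes around the receptors were counted by lists. Of 5 subunit genes of the muscle receptor, 2 were tested and neither was called, beside 33.4% of all genes tested, too few genes to describe the list. CHRNA1, which carries the binding site at the neuromuscular junction, had 29, 23 and 23 counts against 11 and 14, a log2 fold change of -0.81 (adjusted p = 0.111 in edgeR's quasi-likelihood test). CHRNE had 23, 40 and 40 counts against 32 and 31. CHRNB1, CHRND and CHRNG had 0 counts in every library. For CHRNB1 the same limit holds as for CHRNA7, since its neighbor POLR2A, a gene every cell uses, had at most 4 counts at its primary entry and 165 to 284 at a further one.

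Of 15 genes for receptor assembly and for Ly6 proteins that bind nicotinic receptors, 10 were tested, 3 rose and 1 fell, a share near the 33.4% of all genes called, with a median log2 fold change of 0.30. LYPD6B, a membrane-anchored Ly6 protein, had 148, 119 and 147 counts against 221 and 197 and rose by 0.77 on the log2 scale (SE 0.14, adjusted p = 0.00344 in edgeR's quasi-likelihood test). YWHAH, a 14-3-3 protein, rose by 0.76 (SE 0.14, adjusted p = 0.00382 in the same edgeR test). UBXN2A, which acts on ubiquitin-dependent turnover, rose by 0.29 (adjusted p = 0.0183 in the same edgeR test). With upper-quartile normalization the value for UBXN2A was 0.21, its call was lost (adjusted p = 0.0594 in the same edgeR test), and 3 genes of the list were called in place of 4. RIC3, a chaperone of receptor assembly, had 1566, 1594 and 1683 counts against 1336 and 1052 and fell by 0.27 on the log2 scale (adjusted p = 0.0240 in edgeR's quasi-likelihood test). The calls of RIC3 and UBXN2A were each lost in 4 of the 5 fits that left out 1 library, all except the fit without control replicate 1, and those of LYPD6B and YWHAH in none of the 5.

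Of 12 genes for the synthesis, transport and breakdown of acetylcholine, 7 were tested, 2 rose and 0 fell, beside 33.4% of all genes called, with a median log2 fold change of -0.01. CHAT, the enzyme that makes acetylcholine, had 0, 3 and 2 counts in the control libraries versus 39 and 14 in the co-cultured libraries. All control libraries were at or under the floor, and co-cultured replicate 1 was the highest. CHAT passed the filter on low counts only through the co-cultured libraries, so its call describes it and supports nothing further. The log2 fold change, which depends on the prior count of the fit, was 4.03 (SE 0.70, adjusted p = 0.00254 in edgeR's quasi-likelihood test). Without co-cultured replicate 1 it was 3.29 and the call was lost (adjusted p = 0.0630 in the same edgeR test). SLC18A3 encodes the transporter that loads acetylcholine into vesicles and lies at 49610301-49612720 on chromosome 10, within the span of CHAT at 49609095-49665104 and on the same strand. It had 0, 3 and 2 counts against 19 and 8, below the filter, and was singled out after its values were seen. The ratio of its pooled CPM was 9.11, with an exact 95% interval of 3.46 to 30.3. CHAT and SLC18A3 share 0 exon bases in the annotation.

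BCHE, an esterase that splits choline esters, had 49, 39 and 38 counts against 79 and 69 and rose by 0.99 on the log2 scale (SE 0.22, adjusted p = 0.00856 in edgeR's quasi-likelihood test). Leaving out co-cultured replicate 1 or 2 gave log2 fold changes of 1.03 and 0.95 with an adjusted p of 0.0617 or 0.0709 in the same edgeR test. ACHE, the acetylcholinesterase, had 2, 2 and 5 counts against 5 and 6 and was not tested. SLC5A7, the high-affinity choline transporter, had 1 count in all libraries together.

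**Figure D5:**
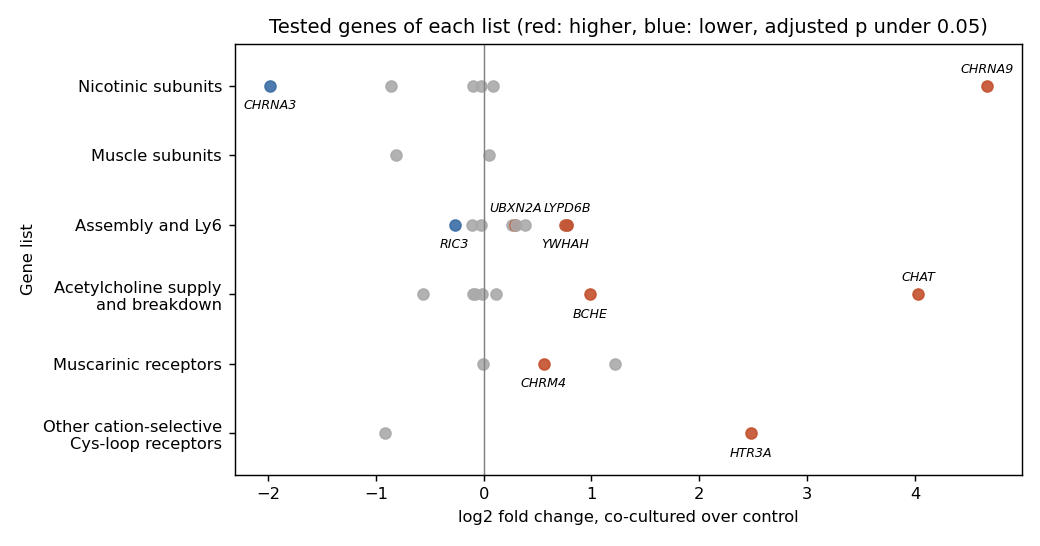
Log2 fold change between co-cultured and control libraries for the tested genes of the subunit list and of 5 lists around it, with a point for each gene, red for higher, blue for lower and gray for not called at an adjusted p under 0.05. CHRNA9 (4.66), CHAT (4.03) and HTR3A (2.48) lay farthest to the right and CHRNA3 (-1.98) farthest to the left.

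Of 5 muscarinic receptor genes, which encode the G protein-coupled receptors for acetylcholine, 3 were tested and 1 rose, beside 18.4% of all genes. CHRM4 had 125, 153 and 174 counts against 234 and 162, a log2 fold change of 0.56 (adjusted p = 0.0317 in edgeR's quasi-likelihood test). In CPM the groups did not overlap, but the call was lost with upper-quartile normalization (adjusted p = 0.0634 in the same edgeR test) and without control replicate 2, co-cultured replicate 1 or co-cultured replicate 2. The log2 fold change of CHRM4 without co-cultured replicate 1 was 0.43 (adjusted p = 0.253 in the same edgeR test). CHRM3 had 558, 457 and 486 counts against 459 and 424, and its log2 fold change was 0.00. A further list held 6 genes for cation-selective channels of the Cys-loop family, to which nicotinic receptors belong. Of these, 2 were tested and 1 rose, beside 18.4% of all genes tested, too few genes to describe the list. HTR3A, which encodes a channel opened by serotonin, had 91, 46 and 39 counts in the control libraries versus 344 and 244 in the co-cultured libraries. Both co-cultured libraries were well above the control libraries, and the log2 fold change was 2.48 (SE 0.29, adjusted p = 0.000323 in edgeR's quasi-likelihood test).

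Of 7 genes for transcription factors known to act on the promoters of the chromosome 15 cluster, 5 were tested, 2 rose and 0 fell, beside 33.4% of all genes called and 18.4% higher. POU4F2, a POU-domain factor, had 4, 16 and 10 counts against 40 and 17, a log2 fold change of 1.64 (adjusted p = 0.0361 in edgeR's quasi-likelihood test). Without co-cultured replicate 1 the value for POU4F2 was 1.07 and the call was lost (adjusted p = 0.360 in the same edgeR test). Of the 3 cluster genes themselves, CHRNA3 fell, CHRNA5 was not called and CHRNB4 was not tested.

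In the co-cultured libraries the summed endothelial markers lay within the range of the control libraries, with and without KDR, FLT1 and TEK. VWF alone held 4.14 to 8.44 CPM of that sum in the control libraries, so a small carry-over would not show in it. Of the 9 markers tested, 1 was called higher, ESAM, and 0 lower. ESAM passed the filter on low counts only through the co-cultured libraries. Reads of HBMECs were not counted apart from those of the tumor cells. Their part in the higher counts of CHRNA9, CHAT and HTR3A was not tested. The share of reads that were not aligned was 8.13% to 8.48% in the control libraries versus 15.9% to 16.8% in the co-cultured libraries, so it moved with the groups, and its part in the results was not tested.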

How the data were processed

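RNA-Seq was performed on rRNA-depleted RNA of NCI-H209 cells with a directional library kit. Per the labels, the authors' processing used CASAVA 1.8, STAR 2.6.1b, DESeq2 and the build GRCh38. For each library the authors deposited read counts per gene, without normalization, in 1 column that ignores strand and 1 column for each strand. Here the strand that the directional kit assigns to the gene was used, which held most reads. A deposited table of the authors' comparison holds means, fold changes and p-values. Of it, gene names alone were used: 9 of the 10 subunit genes were found in it, and CHRNA7 was taken from GENCODE release 29.

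Genes were filtered with filterByExpr of edgeR 4.0.16 (R 4.3.3; minimum count 10), scaled by TMM and tested with edgeR's quasi-likelihood method over all 5 libraries, with Benjamini-Hochberg adjustment over 20360 genes. A call is an adjusted p under 0.05. Standard errors were derived from the log2 fold change and the F statistic. RPKM used the union of exons. Pooled ratios have conditional Clopper-Pearson intervals. The smallest p of an exact permutation test of 3 libraries against 2 is 0.1. No label says that replicates were separate cultures, so p-values measure the spread between these libraries, which may be technical. The common dispersion was 0.0103. On simulated data of these depths, 164 of 195 changed genes tested were recovered among 20360, with 7 unchanged genes called. The simulation changed 200 genes and set no library apart, while 33.4% of genes were called in the data. Its rates therefore need not hold for these libraries.

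The subunit genes and all lists were chosen with earlier results of these data known. Named genes are the 10 subunit genes, CHRFAM7A, up to 5 called genes of each further list with the smallest p, the 3 profiles nearest to that of CHRNA9, and the nearest tested neighbors. Other genes were named after their values were seen, among them SLC18A3, the uncalled genes of the lists and the endothelial genes with opposite-strand reads. Alternatives were DESeq2 1.42.0, upper-quartile and median-ratio scaling, other filters, unstranded counts, a replicate block, summed entries and each library left out. Leaving out libraries for the named genes of the further lists was added after the data were seen. The result of 1 gene that the rule selects is not reported here. Promoters were RefSeq windows, and protein sequences were not analysed here. Plots used matplotlib 3.10.9.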

Additional observations from a re-analysis of the deposited data

Results flagged for a closer look

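A signal outside the gene counts differed between the groups. The reads that were not aligned made up 16.8% of co-cultured replicate 1 and 15.93% of co-cultured replicate 2, above the 8.13% to 8.48% of the 3 control libraries. Its part in the values of the subunit genes was not tested. No group had the 4 libraries needed to test for a library far from the others.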

How the results depend on the processing

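CHRNA9 was called in all 11 alternatives in which it was tested, with log2 fold changes of 4.14 to 6.17 and adjusted p-values of at most 0.0130 by edgeR or DESeq2. The calls on the low-count genes depended on the setting. Against 2 subunit genes called, DESeq2 gave 1, unstranded counts 1 and a filter of at least 10 counts in every library 0, and fits that left out a library gave 1 to 3. Against 1 gene lower, DESeq2, unstranded counts and the filter of at least 10 counts gave 0, a filter of at least 1 count in any library gave 2, and fits that left out a library gave 0 to 2. The filter of at least 10 counts in every library removed CHRNA9 and CHRNA3, leaving 0 higher and 0 past the study's criterion. Against 2 genes past that criterion, unstranded counts gave 1 and fits without a library 1 to 3. DESeq2 called 2 endothelial markers against 1, and upper-quartile normalization called 0 muscarinic genes against 1 and shifted the median of all genes to -0.11, with 3076 genes higher and 3929 lower against 3750 and 3059. CHRNA10 passed the test with the filter of at least 1 count (adjusted p = 0.0417 by edgeR), and SLC18A3, under the same filter and chosen after seeing the data, reached a log2 fold change of 3.07 (adjusted p = 0.000152 by edgeR). Signs turned in uncalled genes alone: CHRNA4 to -0.12 without control replicate 1 and -0.02 without co-cultured replicate 2, CHRNA5 to 0.064 without control replicate 2 and 0.062 without co-cultured replicate 1, and CHRNB2 to 0.037 without control replicate 1. Over the fits without a library the log2 fold changes ran from -0.12 to 0.34 for CHRNA4, -0.10 to 0.064 for CHRNA5 and -0.15 to 0.037 for CHRNB2. CHRNB4, not tested in the main fit, was at -0.29 with the filter of at least 1 count in any library. Without co-cultured replicate 1 it was at 0.46, and without co-cultured replicate 2 at -1.56. The cause of these changes was not tested.

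With the replicate number as a block, 2 subunit genes were lower, CHRNA10 joining CHRNA3 with a log2 fold change of -1.07 (adjusted p = 0.0474 by edgeR), and 4824 genes were called against 6809. The deviations of same-numbered libraries from their group means had correlations of -0.146 and -0.0822. The deviations of the 2 co-cultured libraries mirror each other by construction, so this check cannot decide whether the numbers pair the libraries. Summing CHRNA7 with CHRFAM7A, or entries of the same name, changed no count of calls among the subunit genes. DESeq2 called 5982 of all genes, and leaving out a library gave 2734 (without co-cultured replicate 1) to 9897 (without control replicate 1). At these depths 3 counts were 0.153 to 0.198 CPM, which limits CHRNA3, CHRNA6, CHRNA9, CHRNB3 and CHRNB4.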
